A study of Homo sapiens with 12 samples.

Results

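The genes described here are 9 acute-phase and liver-type secreted proteins, SERPINA3, AMBP, SERPINA1, FGA, FGB, FGG, C3, CP and TF, out of 60902 rows of a gene expression table. They were chosen by name, with results of these data known, because SERPINA3 and AMBP lay among the largest negative differences in time-restricted medium; the choice therefore used the comparisons between media, which are described below without a test. RNA was sequenced from A549/DDP, cells derived from the human lung adenocarcinoma line A549 that resist cisplatin (DDP), a platinum compound whose adducts crosslink DNA. There were 4 groups of 3 libraries. CON cells stayed in RPMI-1640 with 2 g/L glucose and 10% fetal bovine serum (FBS), DDP cells had the drug in that medium, TRF cells had 6 h of it and then 18 h without serum and glucose in each 24 h cycle, and TRF+DDP cells had both. All groups share the same resistant line, which was maintained in DDP, and whether CON and TRF cells were free of the drug beforehand was not stated. The labels name the resistant line for every library, while the text on RNA extraction names A549. The study gives a drug dose and duration, and biological replicates, for a set of results that holds both the sequencing and a qPCR assay, and does not say whether they apply to the sequenced cells. If the libraries of a group were not separate cultures, the p-values measure only technical spread.

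Acute-phase proteins are plasma proteins, made mainly by hepatocytes, whose synthesis changes in inflammation and injury. Interleukin-6 acting through JAK and STAT3, and interleukin-1 acting through NF-kB and C/EBP factors, are the main known inducers. Some lung adenocarcinoma cells also make such proteins. Of the 9 members, SERPINA3 (alpha-1-antichymotrypsin) and SERPINA1 (alpha-1-antitrypsin) inhibit serine proteases, and AMBP is the precursor of alpha-1-microglobulin and the protease inhibitor bikunin. C3 is the central component of complement. FGA, FGB and FGG encode the chains of fibrinogen, CP encodes the copper-carrying ferroxidase ceruloplasmin, and TF encodes transferrin, the iron carrier of plasma.

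In GENCODE v29 (GRCh38), SERPINA3 spans chr14:94612377-94624055 on the plus strand and SERPINA1 chr14:94376747-94390693 on the minus strand, both in the serpin cluster of that chromosome. AMBP spans chr9:114060127-114078472 (minus strand) and C3 chr19:6677704-6730562 (minus strand). The fibrinogen genes lie together, FGB at chr4:154562956-154571086 (plus strand), FGA at chr4:154583126-154590766 (minus strand) and FGG at chr4:154604134-154612967 (minus strand). CP spans chr3:149162410-149222055 (minus strand) and TF chr3:133745956-133796640 (plus strand). All 9 are annotated as protein-coding.

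RefSeq promoter sequences (GRCh38.p14), taken as the 250 bases before the annotated start, were found for 7 members: SERPINA3, AMBP, SERPINA1, FGA, FGB, FGG and TF. Those of SERPINA3 (chr14:94612141-94612390, plus strand) and AMBP (chr9:114078301-114078550, minus strand) are shown because these genes differed most between media, and that of FGB (chr4:154562730-154562979, plus strand) because it holds letters of an interleukin-6 element although the gene was close to 0 in these cells. Capitals mark matches to the C/EBP letters TTNNNCAA in SERPINA3 and AMBP, and in FGB the match to the interleukin-6 type II element CTGGGAA.
SERPINA3: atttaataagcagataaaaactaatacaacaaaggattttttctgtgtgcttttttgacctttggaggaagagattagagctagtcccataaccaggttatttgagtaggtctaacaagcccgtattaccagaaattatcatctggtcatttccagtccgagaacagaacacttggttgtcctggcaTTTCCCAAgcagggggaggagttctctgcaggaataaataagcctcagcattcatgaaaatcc
AMBP: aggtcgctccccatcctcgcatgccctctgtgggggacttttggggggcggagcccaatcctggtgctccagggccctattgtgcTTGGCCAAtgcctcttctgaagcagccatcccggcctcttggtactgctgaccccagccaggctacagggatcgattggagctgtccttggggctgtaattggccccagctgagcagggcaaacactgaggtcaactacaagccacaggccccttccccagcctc
FGB: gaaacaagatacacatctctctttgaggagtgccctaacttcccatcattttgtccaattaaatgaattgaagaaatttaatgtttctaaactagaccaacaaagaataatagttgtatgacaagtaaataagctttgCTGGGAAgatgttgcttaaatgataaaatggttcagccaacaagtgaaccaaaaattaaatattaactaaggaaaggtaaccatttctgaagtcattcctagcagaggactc
The windows had a GC content of 40%, 62% and 33.2%. All 7 windows reach into the GENCODE gene. The GENCODE start lies 14 bases from the RefSeq start in SERPINA3, 172 in AMBP and 24 in FGB. In FGG and TF it lies 311 and 437 bases away, so that these windows are wholly inside the GENCODE gene.

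Both strands of the 7 windows were searched for 6 motifs. TTNNNCAA occurred in 5 of the 7 (SERPINA3, AMBP, FGA, FGB and TF) and in 30.2% of all 35116 promoters. In SERPINA3 it lay 63 to 56 bases before the start and overlapped a match to an NF-kB motif of 10 letters on the opposite strand, 67 to 58 bases before it; that motif occurred in 3 of the 7 and in 54.4% of all promoters. In AMBP the C/EBP letters lay 165 to 158 bases before the start, overlapping a CCAAT box, and CCAAT occurred in 5 of the 7 and in 32% of all. CTGGGAA was found in FGB and FGG among the 7, against 9.15% of all promoters. The STAT3 letters TTCNNNGAA were in FGA alone among the 7 (6.57% of all), and TATAAA was in none of them (10.7% of all). SERPINA1 held none of these letters in this window. A match is a description of letters and not of a bound site.

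Levels are the authors' TPM, a level per transcript length and relative to all transcripts of a library, so that levels of different genes can be set side by side. The read depth is unknown. TPM in a library summed to 1000000, 13029 to 14028 genes per library reached 1 TPM, and TRF replicate 3 had the lowest mitochondrial share of TPM, 6.37% against 8.29% to 10.8% in the other libraries. The identity of the cells was checked by markers. Of 11 epithelial and A549 markers, 7 had a mean of at least 1 TPM, and the sum of the list ran from 2325 to 3079 TPM over all libraries, mostly keratins; EPCAM, CDH1 and KRT19 stayed under 0.5 TPM. Of those 7, 2 were called higher and 3 lower in TRF against CON, where 8.41% and 17.1% of all genes tested were. In TRF+DDP against DDP 1 was called higher and 3 lower, against 11.8% and 21.4%. With TMM-style scaling these counts were 4 and 3, and 1 and 3. The lower genes in both comparisons were the epithelial factor ELF3, the mucin MUC1 and ALDH1A1. In CON they were at 15.9 to 19.4, 28.1 to 35.1 and 369 to 422 TPM, and in TRF at 0.21 to 0.9, 4.32 to 5.08 and 98.9 to 103 TPM. Of 12 hepatocyte markers 1, CPS1, had a mean of at least 1 TPM, APOC3 was listed at 0 in every library, and ALB was at most 0.26 TPM and TTR at most 0.05 TPM. The hepatocyte sum was 4.65 to 5.44 TPM in CON and 4.09 to 5.95 in DDP. With the TRF medium it was 2.13 to 2.67 TPM, and 2.14 to 3.92 when DDP was added, so that these markers were at or near 0 apart from CPS1, ASGR1 and APOA2. The sum of 12 leukocyte markers was 9.45 to 10.7 TPM in CON and 15.5 to 17.5 in DDP. It was 31.9 to 35.2 TPM in the TRF group and 49.8 to 55.7 in the TRF+DDP group, of which CD68 made up most; CD3E, CD3D, MS4A1, FCGR3A and TYROBP were listed at 0 in every library and PTPRC was at most 0.01 TPM. The sum of 10 fibroblast markers, of which COL1A1 made up most, was 14.3 to 16.9 TPM for CON libraries and 16.7 to 21.9 TPM for DDP libraries. For TRF it was 11.0 to 12.2 TPM, and for TRF+DDP 6.33 to 7.18 TPM. That of 10 alveolar type II markers, mostly ABCA3, was 23.9 to 24.1 TPM for CON and 14.4 to 15.7 TPM for TRF+DDP, and that of 8 endothelial markers was at most 2.13 TPM. The part of these markers in the results was not tested.

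Averaged over all 12 libraries, 3 of the 9 members reached 1 TPM: C3, SERPINA3 and AMBP. Together they made up 99.6% of the summed TPM of the members in CON and 99.5% in DDP. In the TRF media they made up 96.5% without the drug and 93.8% with it. The sum of the 9 members was 294 ± 6.37 TPM (SD, n = 3) in CON and 225 ± 12.4 in DDP. It was 31.1 ± 2.10 TPM in the TRF libraries and 27.4 ± 6.21 in the TRF+DDP libraries. The DDP libraries lay between CON and the TRF media without overlap, and the sums of TRF and TRF+DDP overlapped. Since RNA was bulk, fewer cells that make these transcripts and less RNA per cell cannot be told apart.

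**Figure D1:**
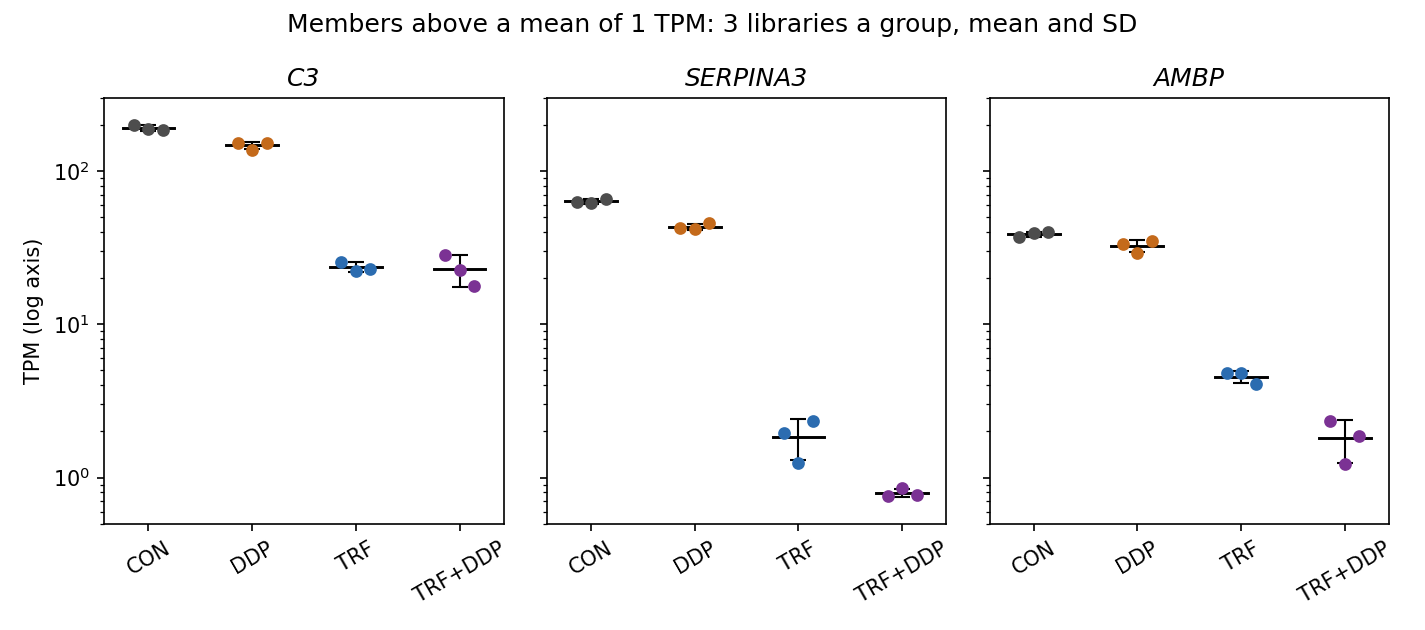
TPM of C3, SERPINA3 and AMBP in each of the 12 libraries on a log axis, by group; points are libraries, horizontal bars the mean of 3 libraries and whiskers the SD. All 3 genes were lower in every TRF and TRF+DDP library than in any CON or DDP library; C3 overlapped between TRF and TRF+DDP, and SERPINA3 and AMBP did not.

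SERPINA3 was at 63.31, 61.51 and 65.92 TPM in the CON libraries and at 42.76, 41.81 and 45.51 TPM in DDP. In TRF it was at 1.95, 1.25 and 2.35 TPM and in TRF+DDP at 0.76, 0.85 and 0.77 TPM. The 4 groups stood in the order CON, DDP, TRF and TRF+DDP, and no neighbours in that order overlapped. By its mean it ranked 2039th of the 13854 genes tested in CON and 3040th in DDP, and 11893rd in TRF as well as 13367th in TRF+DDP. The mean was 34.4-fold lower in TRF than in CON, 54.7-fold lower in TRF+DDP than in DDP and 80.1-fold lower in TRF+DDP than in CON. On the log2(TPM + 1) scale these differences were -4.52 (SE 0.12), -4.63 (SE 0.12) and -5.17 (SE 0.12), the largest, the third largest and the largest fall of all genes tested. That scale understates the change of genes near 1 TPM. AL049839.2, a protein-coding gene model on the same strand that overlaps SERPINA3, was at 3.6, 0.94 and 3.39 TPM in CON and 2.56, 0.17 and 2.31 in DDP, and was listed at 0 in 5 of the 6 TRF and TRF+DDP libraries and at 0.02 TPM in the other. Reads could be divided between both gene models, and how far that would change the level of SERPINA3 was not examined.

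AMBP was at 37.12, 39.17 and 39.98 TPM in CON and at 33.23, 29.23 and 35.1 TPM in DDP. In TRF it was at 4.79, 4.83 and 4.07 TPM and in TRF+DDP at 2.35, 1.22 and 1.88 TPM. The order of the groups was that of SERPINA3, again with no overlap between neighbours. The mean was 8.49-fold lower in TRF than in CON, 17.9-fold lower in TRF+DDP than in DDP and 21.3-fold lower in TRF+DDP than in CON. The differences on the log2(TPM + 1) scale were -2.84 (SE 0.13), -3.59 (SE 0.13) and -3.84 (SE 0.13), the 21st, 7th and 4th largest negative differences. SERPINA3 stood above AMBP in normal medium, with a ratio of 1.64 ± 0.0679 (SD, n = 3) in CON and 1.34 ± 0.0802 in DDP. In the TRF media AMBP stood above SERPINA3, with ratios of 0.414 ± 0.159 in TRF and 0.477 ± 0.195 in TRF+DDP.

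C3 was the most abundant member in every library, at 200.16, 187.39 and 185.03 TPM in CON and 152.2, 137.99 and 152.02 TPM in DDP. It was at 25.58, 22.22 and 23.13 TPM in TRF and at 28.55, 22.77 and 17.77 TPM in TRF+DDP. TRF and TRF+DDP overlapped, while CON and DDP were apart from each other and from both. The mean was 8.07-fold lower in TRF than in CON, 6.40-fold lower in TRF+DDP than in DDP and 8.29-fold lower in TRF+DDP than in CON. The log2 differences were -2.96 (SE 0.13), -2.65 (SE 0.13) and -3.02 (SE 0.13), the 18th, 41st and 19th largest negative differences. C3 made up 64.8% ± 1.54 of the members' summed TPM in CON and 84.1% ± 3.13 in TRF+DDP (SD, n = 3). GPR108, which overlaps C3 on the same strand, was at a mean of 51.2, 54.5, 47.2 and 48.0 TPM in CON, DDP, TRF and TRF+DDP.

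These comparisons between media were used to choose the members and carry no test here. For genes that were not chosen by them, a call required an adjusted p under 0.05 with a fold over 1.5; 17.1% of the genes tested were called lower (25.6% in either direction) in TRF against CON, 21.4% (33.2%) in TRF+DDP against DDP and 19.5% (35.1%) in TRF+DDP against CON. Lower without overlap between groups, as C3, SERPINA3 and AMBP were, were 38.8%, 41.0% and 37.9% of the genes tested in the same order. The median log2 difference of all genes tested was -0.11 in TRF against CON and moved to 0.03 with TMM-style scaling. Relative to that median, the differences in TRF against CON were -4.41 for SERPINA3, -2.73 for AMBP and -2.85 for C3.

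The other 6 members had a mean under 1 TPM and were not tested. SERPINA1, which lies in the serpin cluster with SERPINA3, was at 0.4, 0.35 and 0.31 TPM in CON and 0.28, 0.85 and 0.42 in DDP. TRF libraries held 0.94, 0.78 and 0.75 TPM, and TRF+DDP libraries 1.26, 0.82 and 1.12. All 6 libraries of the TRF media stood above the 3 CON libraries, DDP overlapped every other group, and TRF overlapped TRF+DDP. Of the 18017 rows with a mean above 0 and under 1 TPM, 1.87% had both TRF media above CON in this way. The SERPINA1 mean was 2.33-fold higher in TRF than in CON and 2.06-fold higher in TRF+DDP than in DDP. SERPINA3 exceeded SERPINA1 182 ± 27.8-fold in CON (SD, n = 3) and 2.27 ± 0.784-fold in TRF, and in TRF+DDP the ratio was 0.776 ± 0.230.

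The fibrinogen chains were low in every library. FGA was at 0.17 to 0.2 TPM in CON and 0.17 to 0.25 in DDP. It was at 0.05 to 0.06 TPM for TRF alone, and at 0.42, 0 and 0.01 TPM in TRF+DDP. FGB was at 0 to 0.19 TPM and listed at 0 in 5 libraries, 1 in CON, 2 in TRF and 2 in TRF+DDP, and FGG was at 0 to 0.54 TPM. FGA in TRF lay below all CON and DDP libraries, and the TRF+DDP libraries spread on both sides of them; 6.02% of the rows under 1 TPM had TRF below CON and DDP. CP was at 0 to 0.42 TPM and listed at 0 in 2 TRF libraries, and TF was at 0.07 to 0.18 TPM. In TF the 3 TRF libraries, at 0.1, 0.1 and 0.07 TPM, lay below all others, the nearest of which was at 0.12 TPM, as in 1.72% of the rows under 1 TPM. CP shares its locus with HPS3, and TF with SRPRB and TFP1, so reads could be shared. TRF+DDP replicate 1 had the highest value of its group for 6 of the 9 members, AMBP, SERPINA1, FGA, FGB, FGG and C3.

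**Figure D2:**
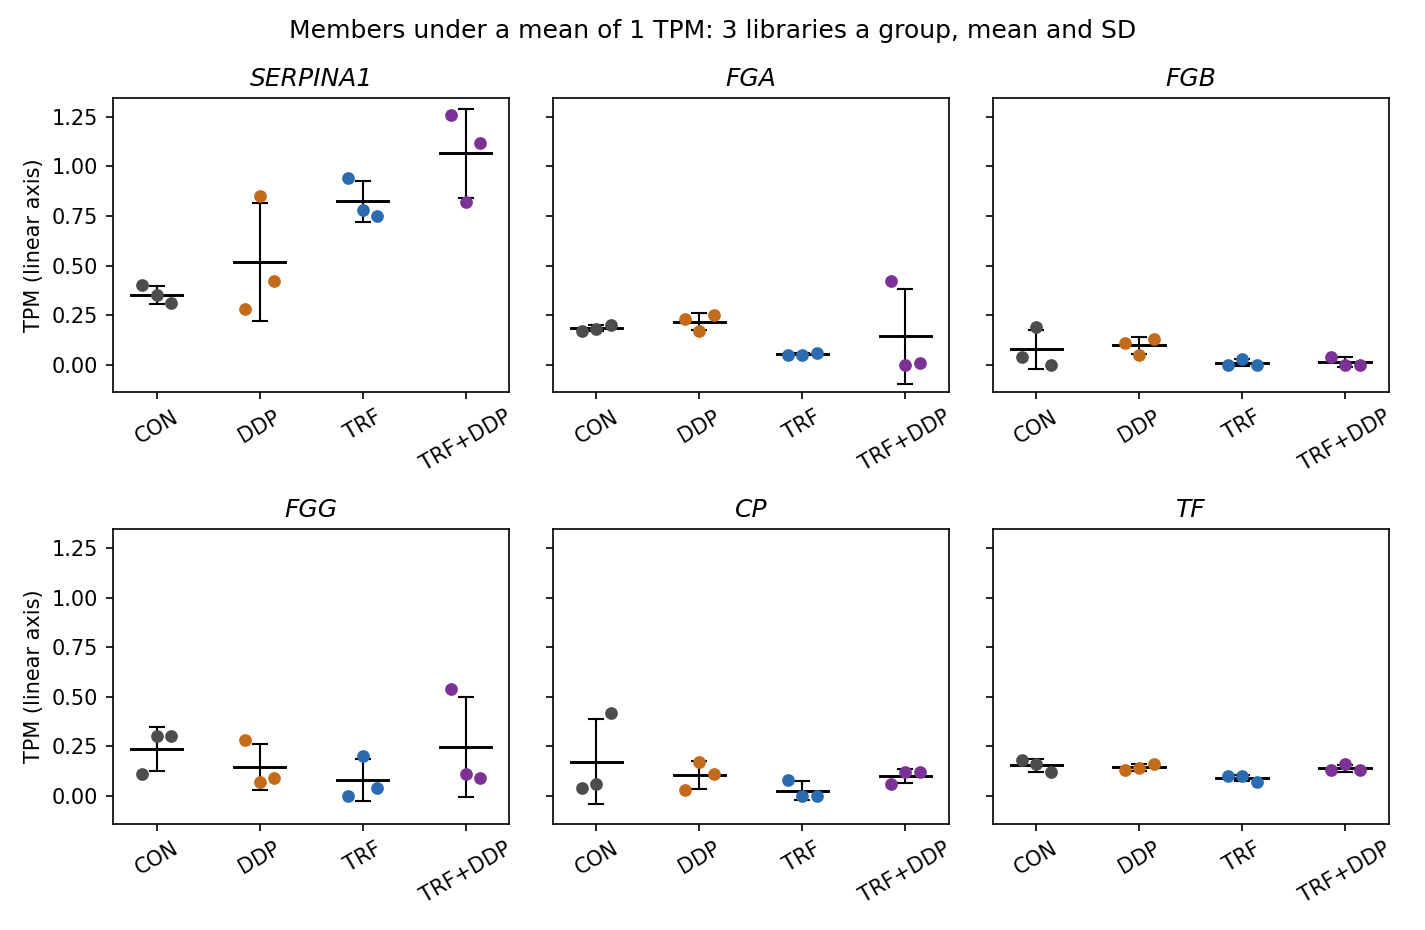
TPM of the 6 members under a mean of 1 TPM in each of the 12 libraries on a linear axis; points are libraries, horizontal bars the mean of 3 libraries and whiskers the SD. SERPINA1 was higher in every TRF and TRF+DDP library than in any CON library and reached 1.26 TPM, and the other 5 genes stayed at or under 0.54 TPM.

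The effect of DDP was tested within each medium, with limma on log2(TPM + 1) in 1 fit of the 4 groups and Benjamini-Hochberg adjustment over the 13854 genes tested. These comparisons share their libraries with the comparisons between media that chose the members. AMBP had the 21st largest negative difference in TRF against CON and the 7th and 4th in the comparisons that use TRF+DDP, so that its p-values for TRF+DDP against TRF and for the interaction are not independent of that choice. The same holds for SERPINA3, which had the 1st in TRF against CON and the 3rd and 1st in the comparisons that use TRF+DDP. The CON and DDP libraries also entered that choice, so the p-values for DDP against CON are not independent of it either. In normal medium, 0 of the 3 members tested passed both the adjusted p and the fold over 1.5, where 2.01% of the genes tested were called and 0.159% were called lower; 2 of the 3 had an unadjusted p under 0.05, and limma without trend also called 0. SERPINA3 was lower with DDP and passed the adjusted p but not the fold, with a log2 difference of -0.54 (95% interval -0.80 to -0.29, adjusted p = 0.0109), at 0.687 of CON on the log2(TPM + 1) scale. Lower genes by the adjusted p alone were 2.17% of those tested. With quantile normalization or TMM-style scaling SERPINA3 was called, at -0.61 and -0.62. C3 differed by -0.37 (95% interval -0.65 to -0.09, adjusted p = 0.0827), and AMBP by -0.25 (95% interval -0.53 to 0.03, adjusted p = 0.242). All 3 were lower in every DDP library than in any CON library, as were 8.89% of the genes tested, and the median of all genes was 0.06.

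In TRF medium, TRF+DDP against TRF, 2 of the 3 members were called lower, where 6.1% of the genes tested were called lower and 16.3% in either direction. The choice of the members used these libraries, so the count and the p-values here are not an independent test. AMBP fell by 1.0 on the log2 scale (95% interval -1.28 to -0.72, adjusted p = 5.50e-05), with 3 of 3 libraries below all TRF libraries. SERPINA3 fell by 0.65 (95% interval -0.90 to -0.39, adjusted p = 6.71e-04), also without overlap, which 22.9% of the genes tested showed in that direction. Its means here were 1.85 TPM in TRF and 0.793 in TRF+DDP, and it passed the filter through 63.6 TPM in CON and 43.4 in DDP. With a pseudocount of 0.1 its difference was -1.08 in place of -0.65, against -0.55 in normal medium. The mean TPM of SERPINA3 was 1.47-fold lower with DDP in normal medium and 2.33-fold lower in TRF medium, and that of AMBP 1.19-fold and 2.51-fold lower. Without TRF replicate 3, the TRF library with the most SERPINA3, its difference was -0.52 and did not reach the fold of 1.5. C3 did not pass the test, with a difference of -0.06 (95% interval -0.34 to 0.22, adjusted p = 0.735), and its interval spans 0.

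The interaction is the effect of DDP in TRF medium minus that in normal medium. It was called for 1 of the 3 members, AMBP, at -0.75 (SE 0.18, 95% interval -1.15 to -0.35, adjusted p = 0.00893), on this scale, where the DDP difference of AMBP was larger in TRF medium. COL1A1, of the fibroblast list, also had a called negative interaction, -1.05. Of the genes tested, 29.8% had a called interaction and 16.3% a negative one. SERPINA3 had an interaction of -0.11 (95% interval -0.47 to 0.25, adjusted p = 0.674), which was -0.53 (adjusted p = 0.108) with a pseudocount of 0.1, and C3 of 0.31 (95% interval -0.08 to 0.71, adjusted p = 0.223). Without TRF+DDP replicate 3 that of C3 was 0.48 (adjusted p = 0.0155). The ratio of C3 to AMBP was 4.93 ± 0.404 in CON (SD, n = 3) and 4.54 ± 0.197 in DDP. It was 5.21 ± 0.553 for TRF but 13.4 ± 4.74 for TRF+DDP, whose libraries were above all others.

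**Figure D3:**
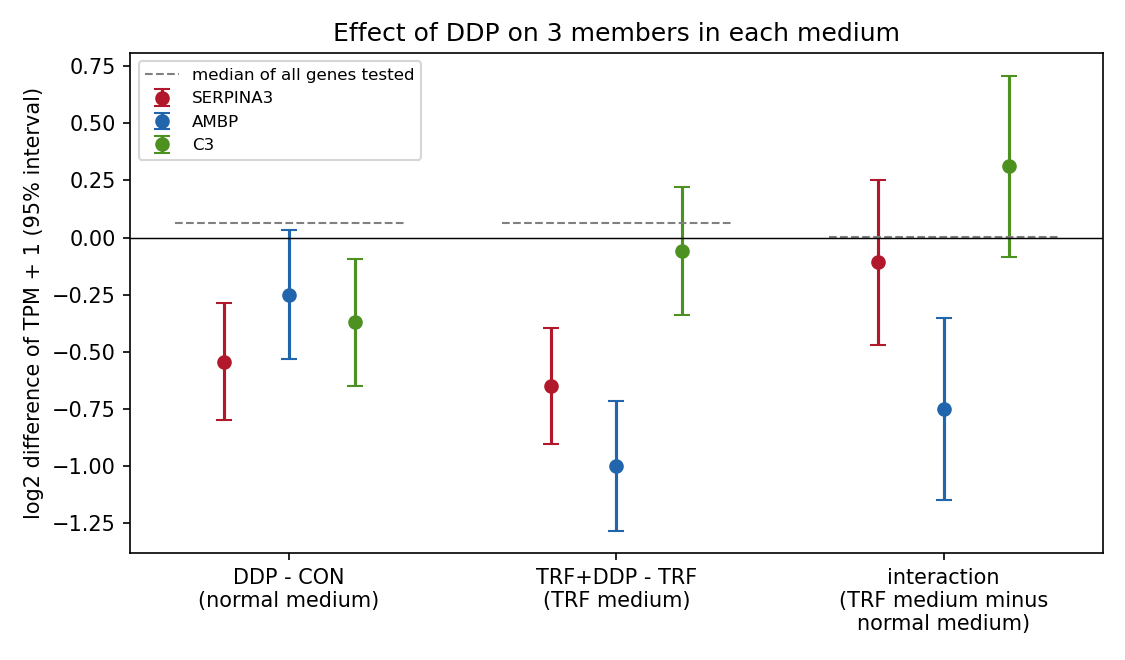
Log2 difference of TPM + 1 for SERPINA3, AMBP and C3, for DDP against CON, TRF+DDP against TRF and the interaction; points are estimates from limma, whiskers their 95% intervals and dashed lines the median of all 13854 genes tested. AMBP differed by -0.25 in normal medium and -1.0 in TRF medium, and SERPINA3 by -0.54 and -0.65, or by -0.55 and -1.08 with a pseudocount of 0.1.

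The genes whose profile over the 12 libraries was most like that of each member were taken from 7743 genes that averaged 10 TPM or more, by the root mean square (RMS) difference of gene-centred log2(TPM + 1). For SERPINA3 they were SUSD2 (RMS difference 0.412), TPD52L1 (0.589) and RAB26 (0.662). SUSD2 was at a mean of 60.9 TPM in CON and 77.5 in DDP, and at 1.84 and 1.54 TPM in the TRF media without and with the drug, so that it shared the level in CON and the difference between media but was higher in DDP than in CON. For AMBP they were RHOV (0.204), GGT5 (0.223) and TPD52L1 (0.262), and for C3 they were BCAM (0.137), LLGL2 (0.222) and JUP (0.254). BCAM was at 64.1, 57.0, 7.09 and 7.45 TPM in CON, DDP, TRF and TRF+DDP. Among the members, AMBP was the 8th and C3 the 11th nearest to SERPINA3, whereas SERPINA3 was the 55th nearest to AMBP and the 371st to C3. These genes all differed between media, and likeness was measured over the same 12 libraries.

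Genes next to the members were compared as well, without those that overlap a member, such as GPR108 for C3. AL049839.2, which overlaps SERPINA3, was at means of 2.64, 1.68, 0 and 0.00667 TPM in CON, DDP, TRF and TRF+DDP. The nearest tested protein-coding genes that do not overlap SERPINA3, IFI27L2 at 482 kb and GSC at 144 kb, were called in none of the 6 comparisons. Of the neighbours of AMBP, ZNF618 at 3.54 kb was lower in TRF+DDP than in DDP by -1.41 and KIF12 at 7.65 kb by -0.98 on the log2 scale. Both were called, as 21.4% of the genes tested were called lower there. Both were also called lower in TRF+DDP against CON (-1.52 and -1.31), ZNF618 in TRF+DDP against TRF (-1.03) and KIF12 in TRF against CON (-0.79). ZNF618 had a called interaction, -0.92, as AMBP and 29.8% of the genes tested had. Of the neighbours of C3, TRIP10 at 7.36 kb was called in none but the interaction, 0.30, and CD70 at 73.6 kb rose with DDP, by 1.10 in normal medium and 0.86 in TRF medium.

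Lists of related genes are given next. Of all genes tested, 8.41% were called higher in TRF against CON, 11.8% in TRF+DDP against DDP and 1.86% in DDP against CON, beside the shares called lower given above. Other acute-phase proteins did not share a direction. Of 25 listed, 5 were tested, and 2 of them were higher and 2 lower in TRF against CON, with a median of 0.53 against -0.11 for all genes; both counts were the same in TRF+DDP against DDP, with a median of -0.44. LCN2, an iron-siderophore binding protein, went from 0.0367 ± 0.0635 TPM in CON (SD, n = 3) to 4.56 ± 0.150 in TRF, and PTX3, a pentraxin, from 0.193 ± 0.0950 to 2.40 ± 0.567. FGL1, a fibrinogen-like liver protein, was at 3.03 ± 0.956 TPM in CON and 0.0600 ± 0.104 in TRF, and FN1, fibronectin, at 13.6 ± 1.32 and 4.79 ± 1.20. SAA1, serum amyloid A, was the 1 gene of the list called in DDP against CON, where it rose by 1.74 (adjusted p = 0.0104) from 0.927 ± 0.816 to 5.41 ± 2.29 TPM. CRP and haptoglobin (HP) were at means of at most 0.00667 and 0.210 TPM, and 20 of the 25 were not tested.

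Of 39 other liver plasma proteins, 6 were tested, with 1 higher and 2 lower in TRF against CON. The higher gene was F12, coagulation factor XII, at 0.59, named outside the rule. PROS1, the anticoagulant protein S, was at 44.5 ± 2.06 TPM in CON and 10.8 ± 1.19 in TRF. VTN, vitronectin, was at 5.76 ± 0.315 TPM in CON and 0.383 ± 0.0896 in TRF, and it rose with DDP in normal medium, to 9.75 ± 0.603 TPM (log2 difference 0.67, adjusted p = 0.00126).

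Of the complement genes other than C3, more were called lower than higher in both TRF media. Of 13 tested among 30 listed, 9 were called lower and 0 higher in TRF against CON, with a median of -1.04, and 7 were lower with TMM-style scaling. In TRF+DDP against DDP 6 were lower and 1 was higher, CD55, an inhibitor of the C3 convertases named here after its values were seen, by 0.76. C1R and C1S, the proteases of the C1 complex, were at 25.2 ± 1.31 and 76.5 ± 1.83 TPM in CON and at 8.28 ± 0.876 and 27.1 ± 2.35 in TRF. C5AR1, a receptor of C5a, was at 19.4 ± 0.909 TPM in CON and 3.17 ± 0.392 in TRF, and CFI, the protease that cleaves C3b, was at 3.68 to 5.57 TPM in CON, at 3.78 to 4.81 in DDP and listed at 0 in all 6 libraries of the TRF media. With DDP in normal medium, 0 of the 13 were called in either direction by limma, and 3 had an unadjusted p under 0.05.

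Of 36 genes of interleukin-6, interleukin-1 and STAT3 signalling, 28 were tested, with 3 higher and 7 lower in TRF against CON and 3 higher and 6 lower in TRF+DDP against DDP; with TMM-style scaling these counts were 6 and 5, and 5 and 6. Outside the rule, and named after their values were seen, the genes called higher beside IL6 in TRF against CON were IRAK1 and NFKBIA, of interleukin-1 and NF-kB signalling, by 0.79 and 0.64. In TRF+DDP against DDP they were IL11, MYD88 and SOCS1, the first 2 by 0.94 and 0.64. IL6 itself was at 27.2 ± 2.84 TPM in CON and was higher in the other groups, at 48.0 ± 0.597 with DDP and at 52.7 ± 4.98 and 48.1 ± 4.05 in the TRF media without and with it. It was the 1 gene of the list called in DDP against CON (log2 difference 0.80, limma adjusted p = 1.12e-04). Whether IL6 bears on the members was not tested. IL1R1, the interleukin-1 receptor, was at 33.5 ± 1.13 TPM in CON, 31.4 ± 0.878 in DDP, and 13.1 ± 1.43 and 7.05 ± 0.354 in the TRF media without and with the drug. OSMR, a receptor of the interleukin-6 family, and JAK1, its kinase, were lower in TRF+DDP than in DDP by -1.11 and -1.09 on the log2 scale. SOCS1, an inhibitor of JAK signalling, was higher by 0.99. Also outside the rule, SOCS3 and LIF were among the genes called lower in TRF against CON, by -0.68 and -0.64. Neither was called with TMM-style scaling.

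Of 31 liver-enriched transcription factors, 18 were tested, with 2 higher and 5 lower in TRF against CON and 1 higher and 6 lower in TRF+DDP against DDP. With TMM-style scaling 3 and 4 were lower in place of 5 and 6. CEBPD, a C/EBP factor of the acute phase, had 91.9 ± 4.62 TPM in CON and 76.5 ± 1.74 in DDP, against 22.0 ± 0.626 in TRF and 18.6 ± 1.88 with both. TCF7L2 was lower in TRF+DDP than in DDP by -1.23, whereas ATF5 was higher by 1.14. Also outside the rule, the called genes in TRF against CON other than CEBPD were PPARG (0.78) and ATF5 (1.16) as higher and CEBPA (-0.65), CEBPB (-1.22), NR3C1 (-0.71) and XBP1 (-1.37) as lower, of which CEBPA and NR3C1 were not called with TMM-style scaling. HNF4A, a defining factor of hepatocytes, had a mean of at most 0.0367 TPM. With DDP in normal medium, limma called 0 of the 18, and 4 had an unadjusted p under 0.05. CEBPB was called lower there with TMM-style scaling, at -0.62. CEBPB, outside the rule and named because of its values, had 180 ± 23.9 TPM in CON and 123 ± 8.05 in DDP, against 76.8 ± 12.8 in TRF and 111 ± 6.08 with both. Its interaction was 1.08 (limma adjusted p = 7.40e-04), where 29.8% of all genes tested had a called interaction. Whether CEBPB bears on the members was not tested.

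Genes that handle iron and copper, the metals carried by TF and CP, moved both ways. Of 25 tested among 37 listed, 4 were higher and 7 lower in TRF against CON, and 6 and 3 with TMM-style scaling. LCN2, also on this list, was higher in TRF+DDP than in DDP by 1.92. The receptors of transferrin, TFRC and TFR2, named after their values were seen, were higher by 0.66 and 0.79. HFE and CYBRD1, which act in iron sensing and uptake, were lower by -1.73 and -1.24, and PCBP2, an iron chaperone and RNA-binding protein, by -1.03. The machinery by which secreted proteins enter the secretory pathway had more calls higher than lower. All 33 genes listed were tested, with 7 higher and 3 lower in TRF against CON and a median of 0.17, and with 9 higher and 3 lower in TRF+DDP against DDP. With TMM-style scaling these counts were 10 and 0, and 13 and 2, and the 3 lower calls in TRF against CON (SEC63, SEC23A and SRP9) were lost. SEC11C and SPCS3, parts of the signal peptidase, were at 32.1 ± 2.30 and 12.8 ± 0.240 TPM in CON and at 88.6 ± 6.75 and 26.8 ± 3.0 in TRF. SRP68, of the signal recognition particle, was higher by 0.89 and SEC23A, of the transport coat, lower by -0.91 in TRF+DDP against DDP. The serpin cluster held 1 tested gene of 11 listed, SERPINA3.

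**Figure D4:**
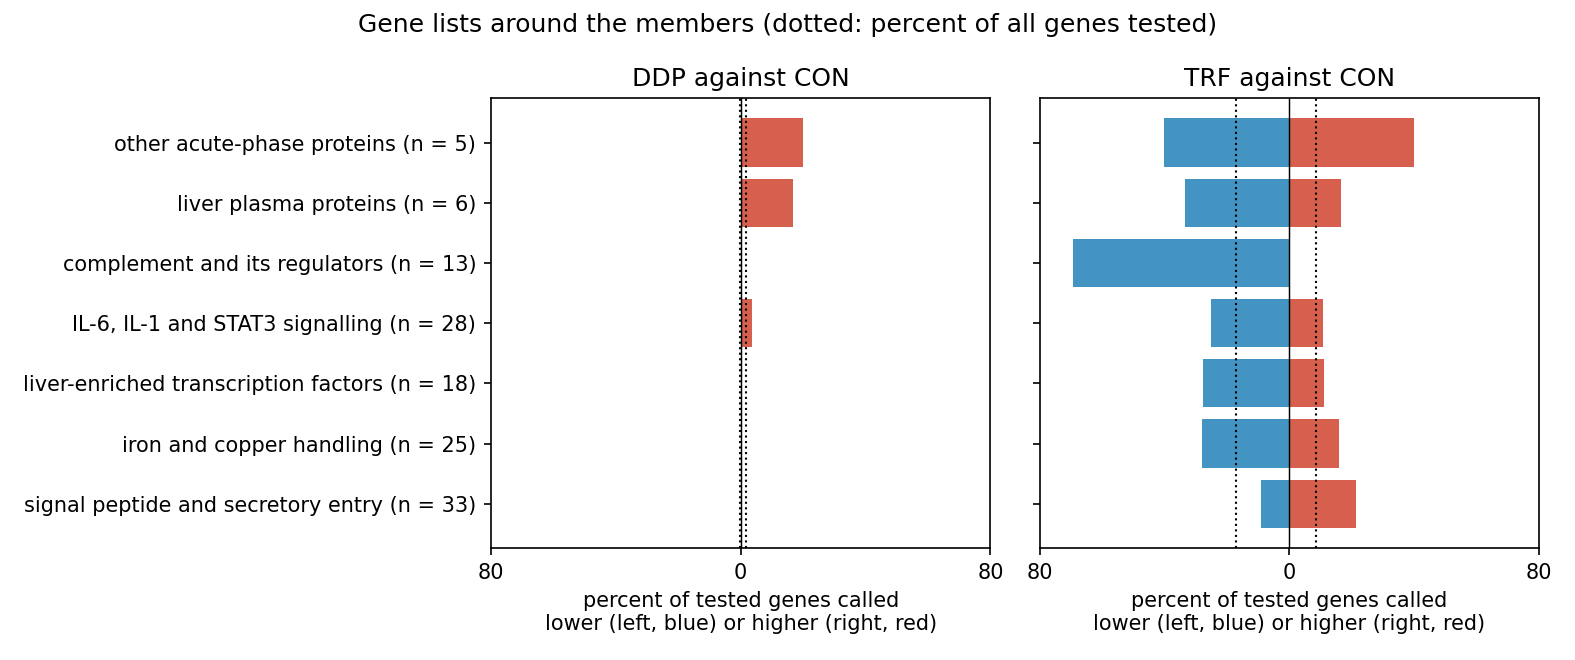
Percent of the tested genes of 7 lists called higher (right) or lower (left) in DDP against CON and TRF against CON; dotted lines give the percent of all 13854 genes tested called in that direction. In DDP against CON the 3 calls were SAA1, VTN and IL6, all higher, and in TRF against CON 9 of 13 complement genes were lower.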

How the data were processed

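The authors isolated polyadenylated RNA from A549/DDP cells, used SeqPrep and sickle for trimming, HISAT2 for alignment and StringTie for assembly, and deposited TPM per library, with group means that were not used here. The sources used here give no versions, genome build or strand use; the submitters' processing notes also name edgeR. Read counts were not analysed here, so depth is unknown and precision rests on 3 libraries a group; with 3 against 3 the smallest exact permutation p is 0.1.

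The table held 60664 Ensembl identifiers and 238 assembled loci. Symbols matched 299 of 300 listed genes. The 13854 genes that averaged 1 TPM or more were tested on log2(TPM + 1) with limma 3.58.1 (trend, robust) in R 4.3.3, in 1 fit, with Benjamini-Hochberg adjustment per comparison. Calls required a fold over 1.5 with the adjusted p under 0.05, or for the interaction that p alone. DESeq2, the authors' test, needs counts. The fit was run on simulated data with changes placed in TRF+DDP alone and read in TRF+DDP against DDP. The DDP comparisons, the interaction and changes in genes near 1 TPM were not simulated. Members and lists were chosen with earlier results of these data known. From each list, up to 4 called genes with the largest difference in TRF+DDP against DDP and 1 TPM or more in some group were named, and those called in DDP against CON, apart from genes that are not reported here. Alternatives were quantile normalization, TMM-style scaling, limma without trend, other filters, a pseudocount of 0.1, a replicate block, fits of just the compared groups, and omission of each library in turn. Python 3.11.15 with pandas 2.3.3 and matplotlib 3.10.9 was used. Sequences are from RefSeq (GRCh38.p14).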

Additional observations from a re-analysis of the deposited data

Results flagged for a closer look

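The effect of DDP on AMBP differed between the media, by a log2 interaction of -0.75 (SE 0.18, limma adjusted p = 0.00893). AMBP was lower in 3 of 3 TRF+DDP libraries than in any TRF library and in 3 of 3 DDP libraries than in any CON library, and the difference was larger in TRF medium. Of all genes tested 29.8% had a called interaction, and 22.9% and 8.89% were lower without overlap in TRF+DDP against TRF and in DDP against CON. Of the 3 members 1 was called, and the choice of the members used the TRF+DDP libraries. Over the alternatives the adjusted p of AMBP ran from 0.00232 to 0.0322. With 3 libraries a group, single libraries that stand apart were not tested for.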

How the results depend on the processing

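No member called in the DDP comparisons or the interaction changed direction. In DDP against CON the number of members called was 1 in place of 0 with quantile normalization and with TMM-style scaling (SERPINA3). In TRF+DDP against TRF it was 1 in place of 2 when at least 1 TPM was required in every library, which leaves SERPINA3 untested, and it ran from 1 to 2 when each library was left out, with 1 without TRF replicate 3. For the interaction it ran from 1 to 2, with C3 added without TRF+DDP replicate 3. The uncalled differences of C3 in TRF+DDP against TRF (-0.22 to 0.11) and of SERPINA3 in the interaction (-0.27 to 0.02) changed sign with libraries left out. A pseudocount of 0.1 moved the interaction of AMBP to -1.07, that of SERPINA3 to -0.53 (adjusted p = 0.108) and the SERPINA3 difference in TRF+DDP against TRF to -1.08. Scaling moved the share of calls that were higher, from 92.1% to 79.2% in DDP against CON (quantile), from 62.6% to 48.5% in TRF+DDP against TRF and from 32.9% to 53.7% in TRF against CON (TMM-style). The replicate block kept the number of members called at 0, 2 and 1 in DDP against CON, TRF+DDP against TRF and the interaction. AMBP was at -0.75 there (limma adjusted p = 0.0108). Over all genes tested, same-numbered libraries did not deviate together (r from -0.082 to 0.079). This check cannot exclude a pairing that is weak or limited to some genes. Depth is unknown, which limits what can be said of the 6 members under 1 TPM.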
